A study of Homo sapiens with 4 samples.

Results

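The features described here are a run of 84 late microRNA registrations on an array read in human oesophageal squamous cell carcinoma lines. They were chosen by accession number alone, as every feature from MIMAT0005863 to MIMAT0005954 except 8 accessions that the choice leaves out, and make up 84 of the 856 features of the array. The rule uses accession numbers and no intensity, but it was written with earlier results of these data known. The numbers belong to a run of human microRNA names, about miR-1200 to miR-1300, that was registered from early deep sequencing of small RNAs, and 737 of the other 772 features carry lower numbers.

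The study measured 4 established lines, named KYSE-450, KYSE-520, KYSE-890 and also KYSE-960, each labelled as a squamous cell carcinoma of the human oesophagus. The lines shared 1 growth medium and received no treatment. From each line, 500 ng of total RNA carrying the red dye Hy5 was put on 1 single-colour array at 32 °C for 16 h. The design holds no normal tissue and no repeat array, so differences between lines cannot be set against a spread between replicates or tested, and every value stands for 1 array.

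MicroRNAs are short RNAs cut by the enzymes Drosha and Dicer from hairpin transcripts and loaded into Argonaute proteins, where they repress messenger RNAs through pairing of a few bases near the 5′ end. The first deep-sequencing surveys of human small RNAs added many names that rested on few reads. Some names of that generation were later withdrawn because their sequences proved to be pieces of transfer, ribosomal or other structured RNAs, while others are ordinary low-level microRNAs. A probe of such a name on an array can therefore report a microRNA, a fragment of another RNA with the same bases, or no RNA at all. The deposited table gives accessions without names, and 0 of the 856 accessions occur in the RefSeq tables used here. The features are therefore given by accession, with no name, sequence, position or role, and the label of the series and the squamous markers of the lines were not checked against the data.

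The deposited values are scanner intensities on a linear scale, with none at 0 or below, so the background appears to be left in. A feature was called above background on an array when it exceeded that array's median plus 3 SDs, the SD being taken from the features dimmer than the median. This threshold lay at 134.5 units in KYSE-450 cells, 146.2 in KYSE-520 cells, 128.3 in KYSE-890 cells and 129.7 in KYSE-960 cells. The 4 arrays differed in total brightness, with summed intensities of 285341, 349156, 192550 and 180682 in the same order, while their medians lay between 77.5 and 85.5. None of the 84 features came near the scanner's ceiling of 65535.

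Nearly all of the series stayed at background in these lines. Of the 84 features, 5 (5.95%) passed the threshold on 1 or more arrays and 3 (3.57%) passed it on every array, against 19.6% and 8.76% of all 856 features. By line, 3 of the 84 passed in KYSE-450 cells, 5 in KYSE-520 cells, and 4 each in KYSE-890 cells and in KYSE-960 cells. Of all features, 13.8% passed on the array of KYSE-450, 17.5% on that of KYSE-520, 11.1% on that of KYSE-890 and 11.0% on that of KYSE-960. The 79 features not above background on any array may still be present at levels under this limit.

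How low the share looks depends on which features it is set beside. Of the 202 features numbered up to 1000, the earliest registrations, 47.0% passed on at least 1 array. Of the 535 numbered above 1000 and before the series, 9.91% did, and of the 27 numbered after it, 25.9%. The choice itself also matters, because all 8 accessions left out from inside the range passed on at least 1 array. With them put back, 13 of 92 features (14.1%) passed. These are counts of features and not tests. The members with the lowest and highest numbers, MIMAT0005863 at 66 to 82 units and MIMAT0005953 at 61.5 to 73.5 units, were at background, as were the nearest features outside the range, MIMAT0005829 at 61.5 to 74.5 units and MIMAT0005955 at 51.5 to 60.5 units. MIMAT0005954, the last number of the range and one of those left out, measured 636.5 to 12813.5 units.

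**Figure D1:**
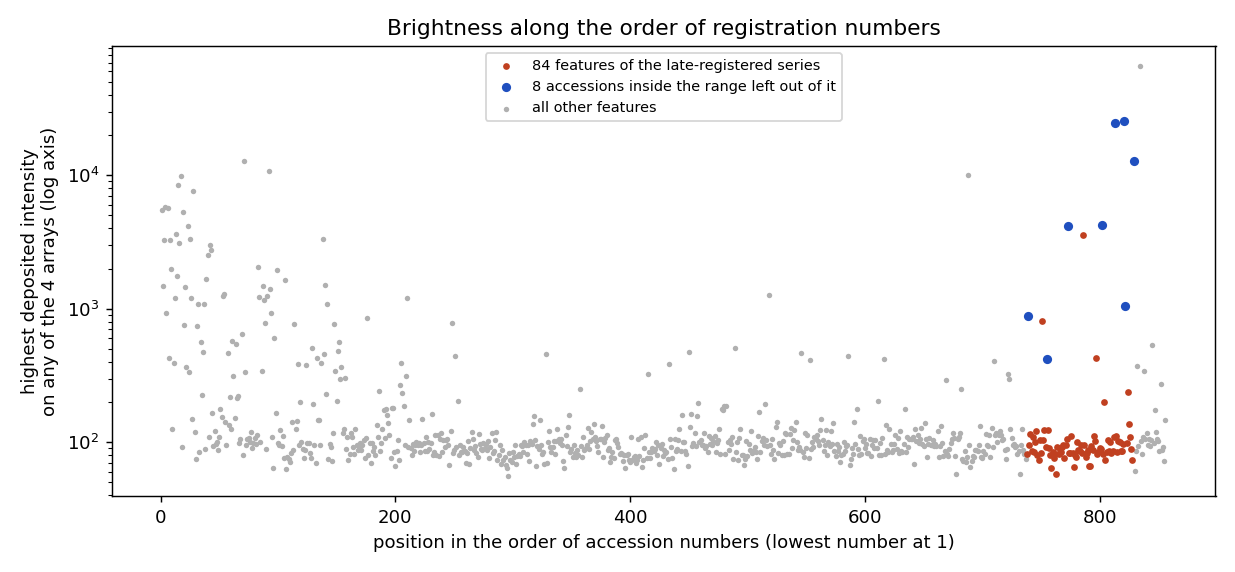
Highest deposited intensity of each of the 856 features on any of the 4 arrays (scanner units, log axis) along the order of accession numbers, with the 84 features of the series in red, the 8 accessions left out from inside its range in blue and all others in grey. The red points form a band near 100 units with 5 above it, the brightest at 3554 units, and the blue points have maxima between 419 and 25503.5 units.

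MIMAT0005911, which reached the highest value of the series on any array and ranked first in it in KYSE-450 and KYSE-520, spanned the widest range over the lines in the deposited values. It measured 3364.5 units in KYSE-450 cells and 3554 in KYSE-520 cells, against 281 in KYSE-890 cells and 320 in KYSE-960 cells, above background on all 4 arrays. KYSE-450 and KYSE-520 were high and close to each other, KYSE-890 and KYSE-960 were low and close to each other, and the pairs did not overlap. It was 12.6-fold higher in KYSE-520 cells than in KYSE-890 cells and 10.5-fold higher in KYSE-450 cells than in KYSE-960 cells in the deposited values. By itself it supplied 33.5% and 32.1% of the summed intensity of the series in KYSE-450 and KYSE-520, against 3.53% in KYSE-890 cells and 4.57% in KYSE-960 cells. These sums include the values of the features at background, so they are not shares of the signal over background.

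The difference in MIMAT0005911 between these pairs of lines shrank but kept its direction when the arrays were brought to 1 common distribution. Quantile normalization, which replaces each value by the mean of the values of that rank over the arrays, left it at 2344.6 units in KYSE-450 cells and 2008.1 in KYSE-520 cells, against 565.5 in KYSE-890 cells and 753.6 in KYSE-960 cells. The fold over KYSE-890 was then 4.15 for KYSE-450 and 3.55 for KYSE-520, and that over KYSE-960 was 3.11 for KYSE-450 and 2.66 for KYSE-520. The arrays of KYSE-890 and KYSE-960 had the lower sums, and how much of the deposited difference comes from array brightness was not tested. Among the 158 features above background in KYSE-520 or KYSE-890, 10 had a higher ratio of KYSE-520 to KYSE-890 than MIMAT0005911 in the deposited values and 12 after normalization, so the feature stayed near the upper end under both scalings. Its rank by brightness among all 856 features was 13 in KYSE-450 cells and 16 in KYSE-520 cells, against 50 in KYSE-890 cells and 38 in KYSE-960 cells.

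Of the 8 accessions left out from inside the range, 5 were highest in KYSE-520 cells and lowest in KYSE-890 cells in the deposited values. MIMAT0005911 had the same order, but how many of all 856 features had it was not counted. As deposited, the median log2 ratio of KYSE-520 to KYSE-890 was 0.88 over the 158 features above background in either line. For that median, values not above background were set to the dimmest feature above it. MIMAT0005938 measured 24463 units in KYSE-520 cells and 13477 in KYSE-450 cells, against 256 in KYSE-890 cells and 482.5 in KYSE-960 cells. MIMAT0005946, MIMAT0005954 and MIMAT0005947 were likewise highest in KYSE-520 cells and lowest in KYSE-890 cells, with spans of 17.9-fold, 20.1-fold and 3.56-fold, although MIMAT0005947 was highest in KYSE-960 cells, at 1740.1 units, after normalization. MIMAT0005927 was at least 32.6-fold higher in KYSE-520 cells than in KYSE-890 cells, where it was not above background. The remaining 3, MIMAT0005864, MIMAT0005880 and MIMAT0005898, were highest in KYSE-890 cells. These 8 features are set beside the series as its neighbours by number and not as members.

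MIMAT0005876, the brightest feature of the series in KYSE-890 and KYSE-960, was above background on every array and varied by less than 2-fold in the deposited values. It measured 808 units in KYSE-890 cells and 447.5 in KYSE-960 cells, against 497 in KYSE-450 cells and 779.5 in KYSE-520 cells. The highest and lowest arrays, KYSE-890 and KYSE-960, were 1.81-fold apart, and no pair reached 2-fold. With each array's median subtracted, an alternative chosen after seeing the data, these 2 lines were 1.97-fold apart. After quantile normalization it measured 2054.9 in KYSE-890 cells and 1333.5 in KYSE-960 cells, against 394.6 in KYSE-450 cells and 449.5 in KYSE-520 cells. It was then 5.21-fold higher in KYSE-890 cells than in KYSE-450 cells, against 1.63-fold in the deposited values. Its direction between KYSE-960 and KYSE-520 turned with the scaling, as it was 2.97-fold higher in KYSE-960 cells after normalization but 1.74-fold higher in KYSE-520 cells as deposited. Its rank among all features was 15 in KYSE-890 cells and 23 in KYSE-960 cells, against 59 in KYSE-450 cells and 55 in KYSE-520 cells. The feature thus stood higher relative to the rest of the array in KYSE-890 and KYSE-960, while its own brightness did not separate the lines that way.

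MIMAT0005922 was also above background on all 4 arrays, at lower brightness. It measured 426.5 units in KYSE-890 cells and 253 in KYSE-960 cells, against 182.5 in KYSE-450 cells and 333.5 in KYSE-520 cells. As deposited, KYSE-890 and KYSE-450 were the only lines 2-fold apart, with KYSE-890 2.34-fold higher. With each array's median subtracted to take out the background, an alternative chosen after seeing the data, this fold was 3.33, and KYSE-520 was 2.39-fold higher than KYSE-450. After quantile normalization the feature was 5.99-fold higher in KYSE-890 cells than in KYSE-450 cells and 3.14-fold higher in KYSE-960 cells than in KYSE-450 cells, at 1079.6 and 565.5 units against 180.1. Between KYSE-520 and KYSE-960 it was 1.32-fold higher in KYSE-520 cells as deposited and 2.77-fold higher in KYSE-960 cells after normalization. Of the 131 features above background in KYSE-890 or KYSE-450, 3 had a ratio of KYSE-890 to KYSE-450 beyond that of MIMAT0005922 under either scaling.

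MIMAT0005929 was close to the threshold. It measured 199 units in KYSE-890 cells, 156.5 in KYSE-960 cells and 151.5 in KYSE-520 cells, and 107.5 in KYSE-450 cells, where it was not above background. Its deposited values differed by at least 1.46-fold between KYSE-890 and KYSE-450, where the bound takes the dimmest feature above background in KYSE-450 cells as the limit. After quantile normalization it was 2.50-fold higher in KYSE-890 cells than in KYSE-520 cells and 2.27-fold higher in KYSE-960 cells than in KYSE-520 cells. In the deposited values the same folds were 1.31 and 1.03. Against KYSE-450 the bound after normalization was at least 2.11-fold for KYSE-890 and at least 1.91-fold for KYSE-960.

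MIMAT0005949 was above background in KYSE-520 cells alone. It measured 237 units there, against 119 in KYSE-450 cells, 88 in KYSE-890 cells and 121.5 in KYSE-960 cells, all under their arrays' thresholds. It was at least 1.83-fold higher in KYSE-520 cells than in KYSE-890 cells, at least 1.81-fold higher than in KYSE-960 cells and at least 1.74-fold higher than in KYSE-450 cells in the deposited values. After quantile normalization the values stood at 159.9 units in KYSE-520 cells, 87.8 in KYSE-890 cells and 161.0 in KYSE-960 cells, and no fold over KYSE-890 or KYSE-960 could be given. The value in KYSE-520 cells lay under the dimmest feature above background in KYSE-890 cells, which sets the bound. It also lay under the value in KYSE-960 cells, which was not above background. KYSE-520 was the array with the most features above background, 150 of 856, and the part of array brightness in this detection was not tested.

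**Figure D2:**
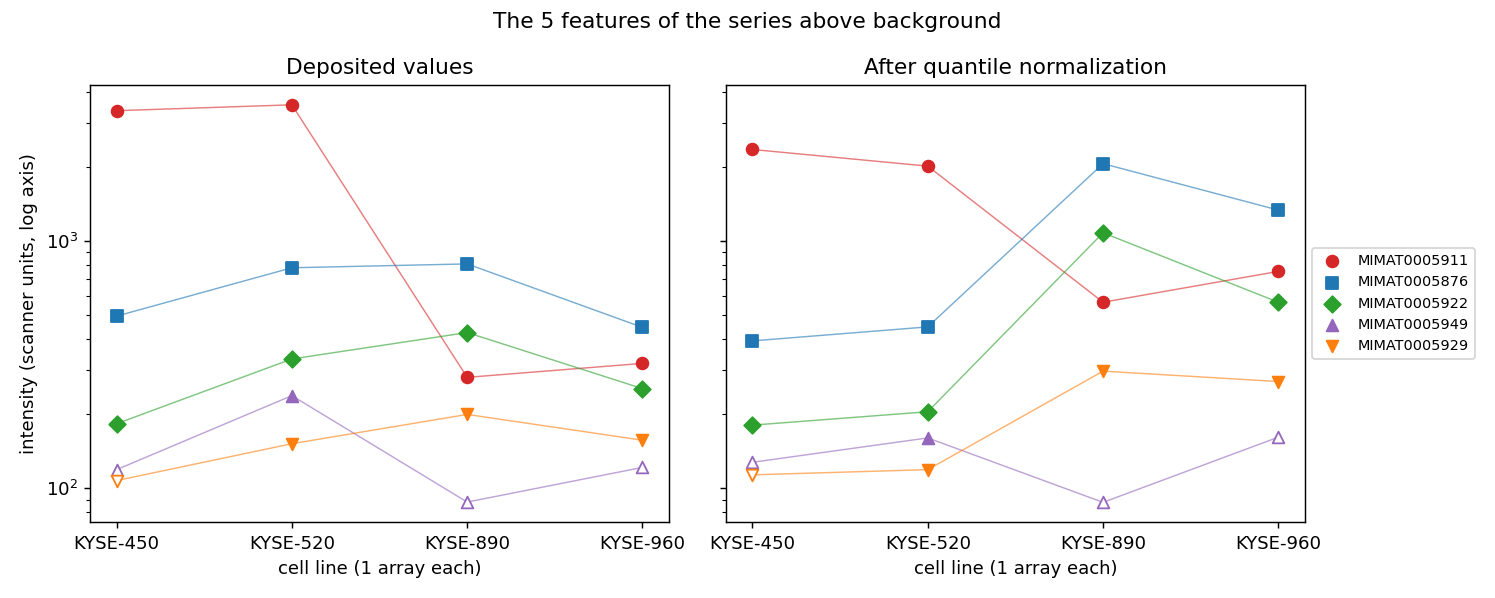
Intensity (scanner units, log axis) of the 5 features of the series above background on at least 1 array in each of the 4 lines, as deposited on the left and after quantile normalization on the right. Filled symbols are above background on that array and open symbols are not, and the thin lines join the values of 1 feature. MIMAT0005911 is lower in KYSE-890 and KYSE-960 in both panels, MIMAT0005929 is higher there in both, and MIMAT0005876 and MIMAT0005922 are higher in both of those lines than in KYSE-450 and KYSE-520 in the right panel only.

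Counting these differences over the whole series gave small numbers on both scales. A feature was counted between a pair of lines when its values, raised to the array median where they lay under it, differed by at least 2-fold and the brighter line was above background. After quantile normalization, 4 of the 84 features (4.76%) differed between KYSE-450 and KYSE-890, against 8.53% of all features, and 4 differed between KYSE-450 and KYSE-960, against 8.88%. Between KYSE-520 and KYSE-890 the count was also 4, against 9.7% of all features, and between KYSE-520 and KYSE-960 it was 4, against 9.81%. These were MIMAT0005911, higher in KYSE-450 and KYSE-520, and MIMAT0005876, MIMAT0005922 and MIMAT0005929, higher in KYSE-890 and KYSE-960 on this scale. MIMAT0005929 was not above background in KYSE-450 cells, and its bound for KYSE-960 over KYSE-450, at least 1.91-fold, lies under 2-fold. With values not above background set to the dimmest feature above it, 3 features were counted between KYSE-450 and KYSE-960. The comparisons share arrays and are not independent of each other. Only features above background in a line of the pair could be counted. Of the 84 features, 5 (5.95%) passed the threshold on any array, against 19.6% of all features. Of all 131 features above background in KYSE-450 or KYSE-890, 73 were counted. The lower shares of the series therefore do not show that its features above background differ less often between lines.

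Within the other pairs of lines no feature of the series was counted. After normalization, 0 of 84 differed between KYSE-450 and KYSE-520, against 2.34% of all features, and 0 did so between KYSE-890 and KYSE-960, against 3.5%. No feature of the series was counted as 2-fold above or below all 3 other lines, against 4.09% of all features. The 79 features above background on no array could not be counted here on either scale, so each 0 rests on at most 5 features. Of all 156 features above background in KYSE-450 or KYSE-520, 20 were counted between these lines after normalization. In the deposited values, again 0 differed between KYSE-450 and KYSE-520, against 4.21% of all features, 0 between KYSE-890 and KYSE-960, against 1.4%, and 0 lay apart from all other lines, against 4.91%. On that scale 2 features differed between KYSE-450 and KYSE-890, against 8.18% of all features, and 2 between KYSE-520 and KYSE-890, against 11.1%. MIMAT0005911 was 1 of the 2 in both comparisons, joined by MIMAT0005922 in the first and MIMAT0005949 in the second, whose bound of at least 1.83-fold lies under 2-fold. MIMAT0005911 was the only one between KYSE-450 and KYSE-960, against 7.48% of all features, and between KYSE-520 and KYSE-960, against 11.3%.

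The remaining 79 features, called dim here because they were not above background on any array, lay at the level of the array background. Their upper limit is set by that definition. Their intensities ran from 33.5 to 119 units in KYSE-450 with a median of 73.0, from 36 to 136 in KYSE-520 with a median of 74.0, from 47 to 123 in KYSE-890 with a median of 78.5, and from 44.5 to 114.5 in KYSE-960 with a median of 72.0. The 609 other features not above background on any array had medians of 73.5, 81.0, 77.5 and 75.0 units in the same order of lines. On the KYSE-520 array the median of the series was thus 7 units under that of the other dim features, and on the remaining arrays the medians lay within 3 units of each other. Over all 84 features, 58 (69.0%) lay under the array median in KYSE-520 cells. The counts were 48 (57.1%) in KYSE-450 cells, 46 (54.8%) in KYSE-890 cells and 52 (61.9%) in KYSE-960 cells. By definition, the median splits all features of an array about evenly.

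**Figure D3:**
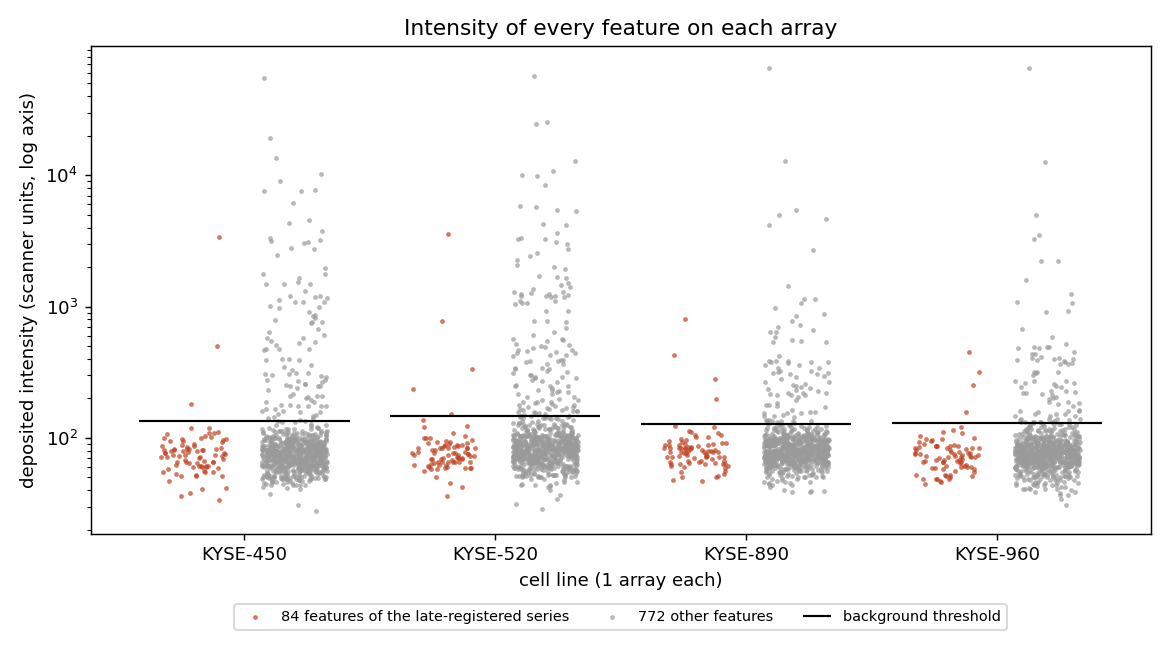
Deposited intensity (scanner units, log axis) of the 84 features of the series in red and the 772 other features in grey on the array of each line, with horizontal bars at the background threshold. Between 3 and 5 red points lie above the bar on each array, and the rest overlap the dim mass of the grey points.

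The features nearest under the threshold were MIMAT0005881, MIMAT0005871 and MIMAT0005950. MIMAT0005881 reached 123 units in KYSE-890 cells, 0.959 of that array's threshold, with 111 units in KYSE-450 cells, 92 in KYSE-520 cells and 93 in KYSE-960 cells. MIMAT0005871 was even across 3 lines, at 119 units in KYSE-450 cells, 121.5 in KYSE-520 cells and 120.5 in KYSE-890 cells, and measured 87 in KYSE-960 cells. MIMAT0005950 measured 136 units in KYSE-520 cells, against 101.5 in KYSE-450 cells, 54.5 in KYSE-890 cells and 81.5 in KYSE-960 cells. Just above the threshold were MIMAT0005929, at 1.55 times it, and MIMAT0005949, at 1.62 times it, each on its brightest array relative to that threshold.

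The spread of the dim features shows how far the arrays differ where no signal is called. The ratio of the highest to the lowest of the 4 deposited values had a median of 1.44-fold over the 79 features and ran from 1.13-fold for MIMAT0005877 to 2.50-fold for MIMAT0005950. It reached 2-fold in 9 of the 79 (11.4%), against 50 of the 609 other dim features (8.21%), whose median was 1.51-fold. A 2-fold difference between dim values of this kind therefore occurs without any called signal. The spread among dim features is not a measure of the error of brighter ones, for which no repeat array exists. It is also limited by their selection, since no dim value exceeds its array's threshold.

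**Figure D4:**
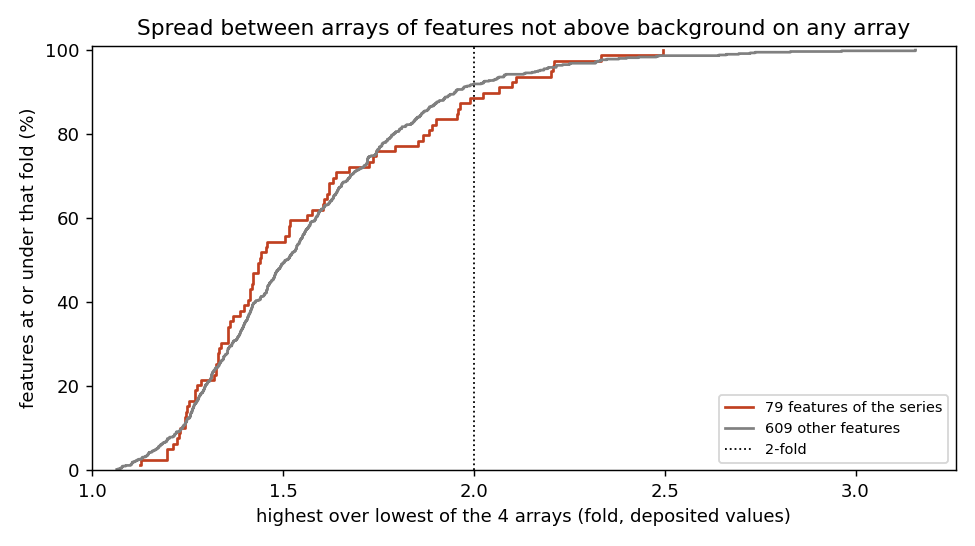
Cumulative share (%) of features not above background on any array whose highest deposited value is at or under a given fold of their lowest among the 4 arrays, for 79 features of the series in red and 609 others in grey, with 2-fold dotted. The curves run close together, with medians of 1.44-fold and 1.51-fold.

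The order of brightness among the dim features was only weakly kept between arrays. Across the 79 features, Spearman's rho between pairs of arrays ran from 0.11 for KYSE-520 with KYSE-960 to 0.36 for KYSE-450 with KYSE-960, and Pearson's r of log2 values from 0.11 to 0.35. Across the 609 other dim features rho ran from 0.20 to 0.30. These correlations are across features, which share the arrays and their background, and are given as a description. Of the 79 features, 26 (32.9%) were highest in KYSE-520 cells, 24 (30.4%) in KYSE-890 cells, 15 (19.0%) in KYSE-960 cells and 14 (17.7%) in KYSE-450 cells. Of the 609 other dim features, 37.9% were highest in KYSE-520 cells, 26.8% in KYSE-890 cells, 18.2% in KYSE-960 cells and 17.1% in KYSE-450 cells. Above the array median on all 4 arrays lay 6 of the 79 (7.59%), against 8.7% of the 609, and 18 (22.8%) lay above it on none, against 21.8%.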

How the data were processed

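Each deposited value is 1 intensity for 1 feature on 1 array, the brightness read by the scanner on a linear scale, per the labels' protocols from 1-colour Hy5 arrays. The authors' spot averaging, background handling and scaling are not stated by the labels. Values are multiples of 0.5. The features, lists and rules used here were chosen with earlier results of these data known.

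Because the medians of the 184 features that reached the array median on every array spanned 0.87 log2, arrays were quantile-normalized (limma 3.58.1, R 4.3.3), and deposited values stand beside the normalized ones. Normalization moved the array medians by -0.09 to 0.06 log2, and the 5 features above background by a median of -0.02 in KYSE-450 cells, -0.71 in KYSE-520 cells, 1.01 in KYSE-890 cells and 1.16 in KYSE-960 cells. Values under the array median were raised to it before log2 for counts. A fold against a value not above background is a bound, taken against that value or, if higher, the dimmest feature over the threshold of its array. Calls were tested on simulated data, with 4-fold changes placed in features well over the threshold and no quantile normalization. Smaller changes, features near the threshold and the normalization were not covered. Named features are those above background, the 3 nearest under it, and the 8 left out. Planned work on sequences, the miR-548 family and cell type markers was not run, since no accession could be paired with a name. The number of arrays limits precision.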

Additional observations from a re-analysis of the deposited data

How the results depend on the processing

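No paired analysis was possible because the design has 1 array per line, and no replicate could be left out. A threshold at 2 SDs put 9 features of the series above background on at least 1 array, adding MIMAT0005866, MIMAT0005871, MIMAT0005881 and MIMAT0005950, and 5 SDs gave 5. Each array's 95th percentile put 3 above it on at least 1 array and 0 on all 4. For the 4 pairs with 4 differing features each, the deposited values gave 2 for KYSE-890 against KYSE-450, 1 for KYSE-960 against KYSE-450, 2 for KYSE-890 against KYSE-520, and 1 for KYSE-960 against KYSE-520. Setting the shared medians equal gave 1 for KYSE-960 against KYSE-450 and 1 against KYSE-520. A 4-fold threshold gave 0 for KYSE-960 against either line and 2 for KYSE-890 against KYSE-520. Apart from the deposited values, how many of all features passed under these alternative settings was not counted. The other 50 counts stayed within 1.5 times the main count, among them all alternatives of the results whose main count was 0. For those results a 4-fold threshold could only give 0, so its counts say nothing about stability. Wherever the brighter line had to be above background, at most 5 features could be counted. For MIMAT0005949, not above background in KYSE-890 cells, no fold over that line can be given after normalization, and with the background threshold as floor the log2 value of KYSE-520 over KYSE-890 is -0.24 by construction, because KYSE-890 is then set to its dimmest feature above background. The log2 difference of MIMAT0005911 between KYSE-450 and KYSE-890 ran from 2.05 after normalization to 4.03 with the array median subtracted. The log2 ratio of KYSE-890 to KYSE-450 for MIMAT0005876 was 2.38 after normalization, 1.16 with the shared medians set equal and 0.7 as deposited. For MIMAT0005922 these values were 2.58, 1.68 and 1.22. Apart from the construction named for MIMAT0005949, the cause of these changes was not tested. Signal over background limits what could be seen, since 688 of 856 features passed the threshold nowhere.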
